A study of Mus musculus with 6 samples.

Results

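Cell cycle and mitosis genes were followed in healing skin of mice engineered to stabilise or to lose β-catenin, the protein that carries the canonical Wnt signal to the nucleus. They are a list of 48 genes of 19057 named on the array, chosen by function, of which 17 act in DNA replication and 31 in mitosis. All probes that the platform annotation assigns to these genes were read, and 46 of the 48 had at least 1 of 90 probes, the exceptions being Ccnb1 and Mki67.

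RNA came from a full-thickness wound of the back skin of C57/BL6 mice, 8 days after injury, and was measured on 6 Illumina bead arrays in 2 experiments. In the adenovirus experiment both mice were 2 months old and carried β-catenin alleles floxed at exon 3. Adenovirus-CRE, whose label names the stabilised state, was given to 1 mouse, and Adenovirus-GFP to the control mouse. In the tamoxifen experiment all 4 mice received tamoxifen and carried alleles floxed at exons 2 to 6. The 2 knockdown mice also carried Cre-Esr1, and the 2 tamoxifen control mice did not. In both tamoxifen groups replicate 1 was 5 months old and replicate 2 was 2 months old, so that replicate number and age cannot be told apart. The sources used here do not give the promoter that drives Cre-Esr1, and a whole wound also holds cells that neither Cre may have reached.

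A dividing cell first copies its DNA and then separates the copies. The MCM helicase is loaded at replication origins and opens the double helix, while ribonucleotide reductase and the thymidine enzymes supply the nucleotides. In mitosis, Cdk1 with its cyclins drives entry, the kinesins and microtubule bundling proteins build the spindle, the checkpoint proteins hold back separation until the chromosomes are attached, and Cdc20 starts the protein breakdown that lets them part. In a skin wound, dividing keratinocytes, fibroblasts, endothelial cells and macrophages can all carry these transcripts.

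Many mitosis genes share short promoter elements, the cell cycle homology region (CHR) and the CCAAT box, while E2F elements are known from replication genes. RefSeq promoter windows (build GRCm38.p6, 250 bases before to 50 bases after the gene start) were held for 38 of the 48 members. Both strands were searched for TTTGAA or TTCGAA as the CHR, for CCAAT, for TTTCCCGC, TTTCGCGC, TTTGCCGC or TTTGGCGC as E2F letters, and for TATAAA. E2F matches may overlap each other, and each was counted. The windows below hold the 160 bases before the start of 5 mitosis genes and 2 replication genes described later, with the matching letters in capitals. They are shown because the 2 classes of members differ in these letters, and they were picked after the search.
Cdc20, chr4:118437344-118437503, minus strand: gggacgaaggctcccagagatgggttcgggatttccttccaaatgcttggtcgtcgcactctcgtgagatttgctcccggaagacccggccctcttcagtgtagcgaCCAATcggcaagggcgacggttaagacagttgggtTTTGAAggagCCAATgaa
Prc1, chr7:80294316-80294475, plus strand: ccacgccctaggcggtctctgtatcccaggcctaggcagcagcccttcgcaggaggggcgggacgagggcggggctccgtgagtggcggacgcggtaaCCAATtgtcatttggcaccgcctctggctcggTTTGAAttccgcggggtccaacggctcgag
Kif22, chr7:127042421-127042580, minus strand: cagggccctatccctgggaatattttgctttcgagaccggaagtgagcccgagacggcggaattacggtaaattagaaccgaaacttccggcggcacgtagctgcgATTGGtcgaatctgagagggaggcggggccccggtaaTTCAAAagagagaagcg
Kif11, chr19:37376222-37376381, plus strand: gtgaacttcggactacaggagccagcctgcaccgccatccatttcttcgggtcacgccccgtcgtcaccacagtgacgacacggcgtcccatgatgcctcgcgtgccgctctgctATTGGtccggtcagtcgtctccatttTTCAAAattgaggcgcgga
Top2a, chr11:99024190-99024349, minus strand: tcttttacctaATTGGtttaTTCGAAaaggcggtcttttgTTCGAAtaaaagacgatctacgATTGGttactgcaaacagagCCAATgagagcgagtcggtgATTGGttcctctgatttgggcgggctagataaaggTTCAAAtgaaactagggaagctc
Mcm5, chr8:75109349-75109508, plus strand: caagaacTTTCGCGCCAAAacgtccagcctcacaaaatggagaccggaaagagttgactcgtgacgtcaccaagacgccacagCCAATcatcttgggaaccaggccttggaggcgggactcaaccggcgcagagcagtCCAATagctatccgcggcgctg
Mcm6, chr1:128359706-128359865, minus strand: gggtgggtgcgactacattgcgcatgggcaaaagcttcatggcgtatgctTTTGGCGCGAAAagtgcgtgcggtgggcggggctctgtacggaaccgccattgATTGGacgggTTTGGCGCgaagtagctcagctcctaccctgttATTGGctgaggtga

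The CHR letters were in 21 of 26 promoter windows of mitosis members (80.8%), in 2 of 14 of replication members (14.3%) and in 19.2% of all 32851 windows. CCAAT was in 23 of the 26 mitosis windows (88.5%), in 9 of the 14 replication windows (64.3%) and in 37.4% of all windows. All 21 mitosis windows with the CHR letters also held CCAAT, and 16 mitosis windows held it more than once. E2F letters showed the opposite order, with 5 of 14 replication windows (35.7%), 1 of 26 mitosis windows (3.85%) and 2.26% of all. TATAAA was in 0 windows of either class, against 13.6% of all windows. These are matches of letters, and no binding was measured in this series.

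The arrays held 45281 probes each, and between 15217 and 16656 of them were detected (detection p under 0.01 against the array's own negative controls). Values are the deposited log2 intensities, with the brightest probe standing for a gene. Across genes, levels were compared only to choose members to name and to set detection limits. Ctnnb1, which encodes β-catenin, read 11.93 and 11.86 log2 on the knockdown arrays and 12.04 and 11.48 on the tamoxifen control arrays. It read 11.40 on the stabilised array against 11.49 on the GFP control. Where its probes lie relative to the deleted exons was not stated in any source used, and these levels therefore do not check the deletion. Of the Xist probes, 4 of 4 were detected on each adenovirus array and 0 of 4 on each tamoxifen array, and no test or difference below crosses the experiments. Basal keratinocyte markers (9 of 9) and fibroblast markers (8 of 8) were detected on every array, in a tissue labelled as skin.

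For the tamoxifen comparison a gene was kept when detected on at least 2 of the 4 arrays, which left 32 members (14 replication, 18 mitosis) of 9855 genes, and 30 members were detected on all 6 arrays. The 14 members with a probe that were not kept read between 4.47 and 6.64 log2. Of these, 10 were detected on 0 arrays: Gmnn, Ccna2, Ccnb2, Bub1, Ttk, Cenpe, Cenpf, Kif20a, Racgap1 and Ube2c. The other 4, Cdc6, Pcna, Tpx2 and Stmn1, were detected on 1 or 2. Counts below are therefore over the members kept, and say nothing of the 16 others.

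The first comparison was that of tamoxifen knockdown with tamoxifen control, which asks how wounds labelled as β-catenin knockdown differ from their controls. No member passed the test, but all 18 mitosis members had a higher mean in knockdown, with a median log2 difference of 0.25, against 0.08 for the 14 replication members and 0.01 over all genes. In total 30 of 32 members were higher, against 51.9% of all genes. The difference rested on the 2-month control array, on which all 18 mitosis members and 11 of 14 replication members were at their lowest of the 4 arrays, against 31.6% of all genes. Without that array the median of the mitosis members was -0.10 and that of all members -0.02, against 0.25 and 0.22 with it.

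limma called 0 of 9855 genes at an adjusted p under 0.05 (0% called), and 434 (4.40%) had an unadjusted p under 0.05. Among the members 0 had an unadjusted p under 0.05, and the lowest was 0.0565, for Ccne2. In 5 members both knockdown arrays were above both controls (2 replication, 3 mitosis), against 17.1% of all genes, and in 0 both were below. Over all genes the groups did not overlap in either direction in 33.1%. With 2 arrays a side, the smallest two-sided p of an exact permutation test is 0.333. In whole tissue, fewer cells of a type and less RNA per cell cannot be told apart.

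**Figure D1:**
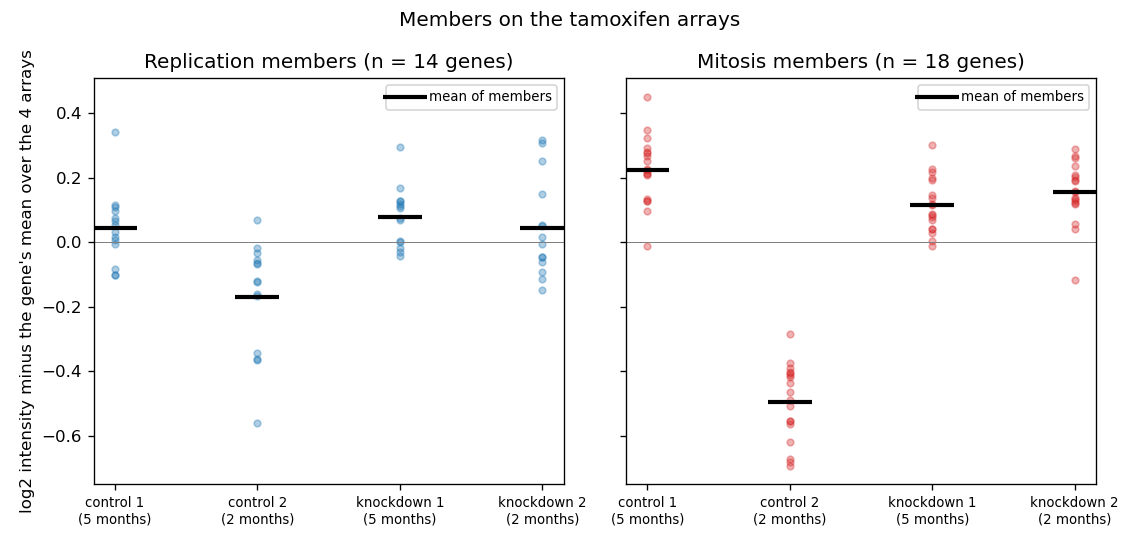
Each point is 1 kept member on 1 tamoxifen array, as its log2 intensity minus its own mean over the 4 arrays, with replication members (14) on the left and mitosis members (18) on the right, and the bar is the mean of the members. The mitosis members average -0.50 on the 2-month control array and between 0.12 and 0.23 on the other 3. The averages of the replication members on the 4 arrays range from -0.17 to 0.08, and single members range further.

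Among the licensing factors, each MCM subunit varied little over the 4 arrays by its brightest probe. Mcm4, a subunit of the replicative helicase, read 11.23 and 10.99 log2 on the control arrays (5 and 2 months) and 11.23 and 11.17 on the knockdown arrays. The groups overlapped, and the difference was 0.09 ± 0.16 (SE, limma adjusted p = 0.983). Mcm3 read 7.24 and 7.11 in control and 7.18 and 7.17 in knockdown, a difference of 0.00 ± 0.15 (SE). Mcm7 read 7.41 and 7.56 against 7.62 and 7.38. Its other probe, also detected on all 6 arrays, read 7.45 and 7.08 against 7.52 and 7.43, a difference of 0.21. Gins1, a part of the active helicase complex, read 7.72 and 7.65 in control and 7.78 and 7.52 in knockdown. By their brightest probes Mcm3, Mcm7 and Gins1 were the lowest 3 of the 32 members by difference. The 7 licensing factors kept ran from -0.04 to 0.09, with 5 of 7 above 0. With arrays scaled by their median in place of quantile normalization, 7 of the 14 replication members were above 0, in place of 12 of 14.

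The nucleotide enzymes were more varied. Rrm1, the large subunit of ribonucleotide reductase, read 9.37 and 9.10 log2 in control and 9.26 and 9.31 in knockdown, and the groups overlapped. Its partner Rrm2 read 7.08 and 7.06 in control and 7.25 and 7.33 in knockdown, without overlap, a difference of 0.22 ± 0.15 (SE, limma adjusted p = 0.976). Its other probe detected on all 6 arrays gave -0.20 with overlapping groups, and the mean of its kept probes gave 0.01. Tyms, thymidylate synthase, read 9.32 and 8.86 against 9.18 and 9.53, and Tk1, thymidine kinase, read 8.84 and 7.94 against 8.47 and 8.75. By the brightest probes the 2-month control stood below the other 3 arrays in both genes, as it did in the mitosis members. A dimmer Tyms probe, detected on all tamoxifen arrays, read 6.22 and 6.44 in control and 6.58 and 6.53 in knockdown. It was lowest on the 5-month control instead. For Tyms, 5 months minus 2 months was 0.06 by the brightest probe and -0.01 by the mean of the kept probes.

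Of the regulators of S phase entry, E2f1, a transcription factor of replication genes, read 9.24 and 9.10 log2 in control and 9.39 and 9.16 in knockdown, with overlap. Ccne2, a cyclin E, read 6.31 and 6.07 in control and 6.54 and 6.73 in knockdown, and its groups did not overlap. Its difference of 0.44 ± 0.18 (SE, limma adjusted p = 0.976) was among the 3 highest of the members, and was 0.18 with no background correction. Its level was near the detection limit, since the lowest detected probe on these arrays read between 5.95 and 6.14 log2. Ccne1, the other cyclin E, read 6.10 and 5.62 against 6.28 and 5.94 and was detected on 3 of the 6 arrays.

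The 3 cyclin and kinase genes of mitotic entry had differences from 0.30 to 0.46 log2. Cdkn3, a phosphatase that acts on cyclin-dependent kinases, read 9.01 and 8.09 log2 in control and 9.01 and 9.02 in knockdown. Its means were 8.55 ± 0.65 (SD, n = 2) and 9.02 ± 0.01 (SD, n = 2), a difference of 0.46 ± 0.34 (SE, limma adjusted p = 0.976). A single array, the 2-month control, stood apart. Cdk1, the kinase of mitotic entry, read 8.84 and 8.16 in control and 8.85 on the 5-month knockdown array, while the 2-month knockdown array was 0.84 above its control. Foxm1, a transcription factor of mitosis genes, read 7.31 and 7.04 against 7.41 and 7.53. By the brightest probe the groups of these 2 genes did not overlap, with differences of 0.43 and 0.30. The other Foxm1 probe, detected on all 6 arrays, read 7.22 and 7.03 in control and 7.11 and 7.28 in knockdown. Its groups overlapped, and its difference was 0.07.

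In the Aurora kinase and passenger group, Cdca8, the passenger protein borealin, read 9.83 and 9.09 log2 in control and 9.62 and 9.77 in knockdown. Its partner Birc5, survivin, read 9.85 and 9.01 against 9.82 and 9.83. Plk1, the polo kinase, read 9.24 and 8.34 against 8.97 and 9.02. By the brightest probes the 5-month control exceeded the knockdown arrays in these 3 genes. The group of 5 had differences from 0.21 to 0.40. By the same probes only Aurkb, the kinase of the passenger complex, had groups without overlap among the 5. It read 7.86 and 7.39 in control and 7.88 and 7.92 in knockdown. Another Birc5 probe detected on all 6 arrays read 9.02 and 8.16 against 9.04 and 9.18, without overlap. A further Birc5 probe read 9.13 and 8.42 against 9.10 and 9.36, with overlap.

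The checkpoint genes Mad2l1 and Bub1b, which restrain Cdc20 until chromosomes are attached, were both lowest on the 2-month control. Mad2l1 read 9.27 and 8.73 log2 in control and 9.25 and 9.29 in knockdown, a difference of 0.27 ± 0.23 (SE). Bub1b read 9.03 and 8.35 against 8.74 and 8.89. Cenpa, the histone H3 variant of centromeres, read 11.81 and 10.93 in control and 11.80 and 11.86 in knockdown, which gave 0.46 ± 0.32 (SE, limma adjusted p = 0.976). Knockdown minus control was -0.01 at 5 months and 0.93 at 2 months.

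The 4 spindle and cytokinesis genes kept had differences from 0.11 to 0.33 log2. Prc1, which bundles the microtubules of the spindle midzone, read 11.08 and 10.46 log2 in control and 11.02 and 10.93 in knockdown. Kif11, the kinesin that pushes the spindle poles apart, read 7.49 and 6.66 against 7.47 and 7.05. Kif22, a kinesin that binds chromosomes, read 9.27 and 8.68 against 9.36 and 9.26. Each of the 3 was lowest on the 2-month control.

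Cdc20, the activator of the anaphase-promoting complex, spanned the widest range of the kept members on these arrays. It read 10.19 and 9.06 log2 in control and 9.78 and 9.93 in knockdown, so that the controls were both the highest and the lowest. Its difference of 0.23 ± 0.40 (SE, limma adjusted p = 0.983) was smaller than its own error. Cdca3, which promotes mitotic entry, read 9.73 and 8.90 against 9.49 and 9.73. Top2a, the topoisomerase that untangles chromosomes, read 9.12 and 8.41 against 8.83 and 8.95, again with the controls at both ends.

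Between the ages the median knockdown difference changed sign for the mitosis members and kept its sign for the replication members. At 5 months the median difference from control was -0.05 for the mitosis members (4 of 18 higher) and 0.08 for the replication members (9 of 14), when 56.4% of all genes were higher. At 2 months it was 0.58 for mitosis (18 of 18) and 0.15 for replication (11 of 14), when 47.1% of all genes were higher. Opposite signs at the 2 ages were found in 21 of 32 members (8 replication, 13 mitosis). The share over all genes was not counted, so this number is not read as particular to the members. Each value at 1 age rests on 1 array per group and has no error.

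**Figure D2:**
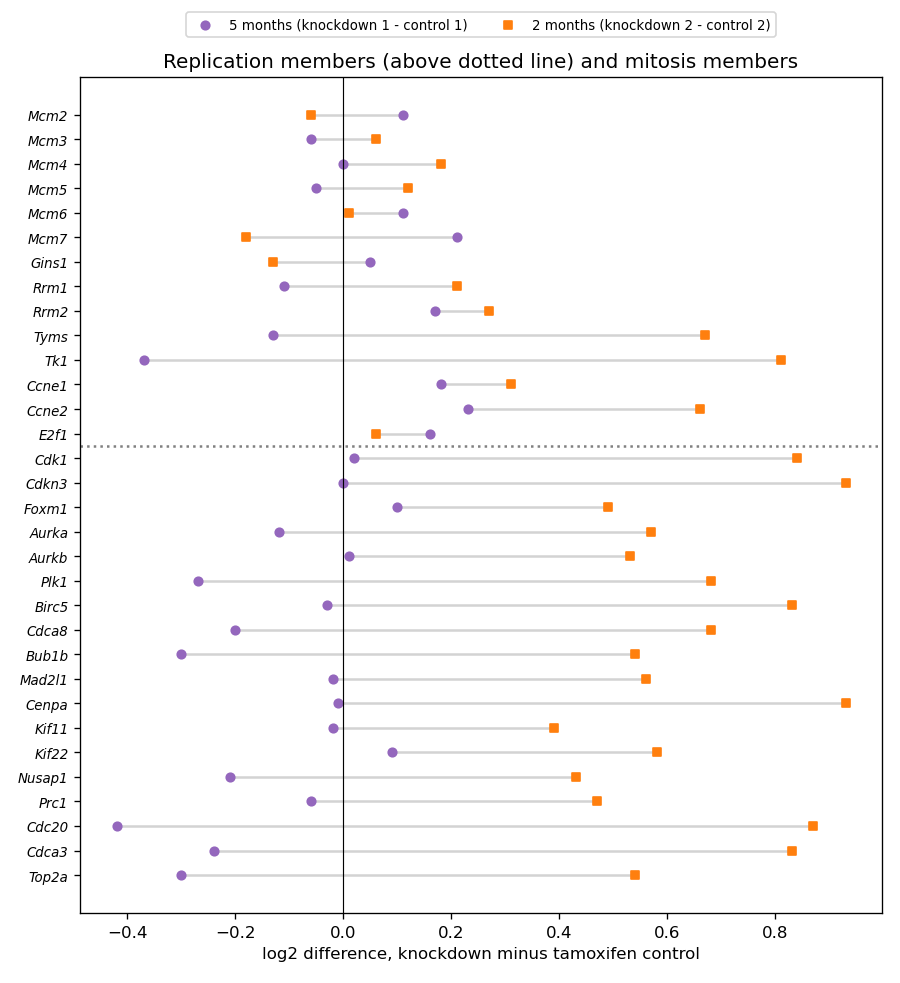
Log2 difference of knockdown minus tamoxifen control for each of the 32 kept members, at 5 months (circles) and at 2 months (squares), 1 array a side, with replication members above the dotted line. All 18 mitosis squares lie between 0.39 and 0.93, and the circles between -0.42 and 0.10.

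The arrays of 5-month and 2-month mice were compared next, within the tamoxifen groups. All 18 mitosis members and 13 of 14 replication members had a higher mean at 5 months, with medians of 0.32 and 0.10 log2 against 0.05 for all genes. limma with the genotype group as a term called 0 of 9855 genes (0% called), and 1000 (10.1%) had an unadjusted p under 0.05, 1 member among them. That member was Kif11, with a difference of 0.62 ± 0.17 (SE, limma adjusted p = 0.471), 0.83 in the controls and 0.41 in the knockdown group. With no background correction it was 0.34.

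The age differences of the 2 groups were unequal. In the controls 18 of 18 mitosis members were higher at 5 months, with a median of 0.70 log2, and 13 of 14 replication members, with a median of 0.13, against 53.5% of all genes. In the knockdown group 4 of 18 mitosis members and 8 of 14 replication members were higher at 5 months, with medians of -0.05 and 0.03, against 59.0% of all genes. The control difference and the knockdown difference at 2 months share the 2-month control array. Cdc20 differed by 1.14 in the controls and by -0.15 in the knockdown group, and Cdkn3 by 0.92 and -0.01. These 2 and Kif11 had the 3 highest age differences, and Rrm2, Mcm5 and Ccne2 the 3 lowest, from -0.03 to 0.02.

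Both groups were higher at 5 months in 11 of 32 members, against 36.2% of all genes, and both lower in 0, against 23.7%. The 11 were 7 replication members and 4 mitosis members, and these 4 were the spindle genes Kif11, Kif22, Nusap1 and Prc1. Nusap1, a microtubule-binding protein of the spindle, read 9.04 log2 at 5 months and 8.37 at 2 months in control, and 8.83 and 8.80 in knockdown. In 3 of the 4 the knockdown arrays differed by 0.10 or less, so that Kif11 alone had a difference above 0.4 in both groups.

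Markers of other cells also differed between the tamoxifen arrays. The summed endothelial level was lowest on the 2-month control, at 5720 linear units, against 10000 on the 5-month control and 7510 and 7750 on the knockdown arrays, with 5 or 6 of 6 markers detected. All 6 endothelial markers were lowest on that array. The summed macrophage level was also lowest there, at 31600 against 46000, 45100 and 51500, with 7 of 7 detected, but only 3 of the 7 markers were lowest there. Neutrophil markers summed to 15300 and 29200 in control (5 and 2 months) and to 6790 and 67200 in knockdown, with 4 or 5 of 6 detected. Erythroid markers summed to 6140 and 3150 in control and to 4040 and 27100 in knockdown, with 1 or 2 of 2 detected, so that both lists were highest on the 2-month knockdown array. Basal keratinocyte markers separated the groups instead, with 122000 and 148000 in control and 79700 and 99900 in knockdown. Skeletal muscle markers summed to 87300 and 32900 in control and to 6240 and 35700 in knockdown, with Myh4 below detection on both knockdown arrays. The part of these cells in the values of the cell cycle genes was not tested.

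The stabilised array was set against its GFP control with 1 array each, so there is no test and no replicate error. The mitosis members were mostly higher and the replication members mostly lower on the stabilised array, but by small amounts. Among 36 members detected on at least 1 of the 2 arrays, 17 of 20 mitosis members were higher, with a median of 0.20 log2, and 6 of 16 replication members, with a median of -0.11, against 55.3% of all 10002 genes and a median of 0.05. With median scaling, which moves the median of all genes to -0.10, the medians were 0.07 (12 of 20 higher) and -0.31 (0 of 16 higher).

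At least 2-fold differences were found in 276 genes higher (2.76%) and 491 lower (4.91%), or 173 higher of 842 with median scaling. Of the members 0 were at least 1.5-fold higher, against 9.51% of all genes, and 1 was at least 1.5-fold lower, against 10.3%. That member was Ccne2, which read 7.19 log2 with GFP and 5.74, below detection, with stabilised β-catenin. In the deposited values its level was at least 1.86-fold lower there, when the lowest detected signal of that array is taken as its limit. Under 5 other settings its measured log2 difference ran from -1.65 to -0.63, so the bound does not hold in all of them.

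By measured value the highest members were the mitosis genes Cenpa, Kif22 and Tpx2, although the place of Tpx2 is not settled because it was below detection on 1 array. Cenpa read 11.35 log2 with GFP and 11.91 with stabilised β-catenin, which is 1.48 times the intensity. Kif22 read 8.98 and 9.54, and Tpx2, which targets Aurora A to the spindle, read 5.78, below detection, and 6.31, at least 1.23-fold higher. Under 5 other settings the measured log2 difference of Tpx2 ran from 0.19 to 0.53. After Ccne2 the lowest were Mcm3, with 7.24 and 6.78, and Tyms, with 9.17 and 8.73. Cdkn3 (9.04 and 9.54), Plk1 (8.89 and 9.35) and Cdc20 (9.80 and 10.18) were higher on the stabilised array. Top2a (9.11 and 8.78) was lower, the largest such difference among mitosis members detected on both arrays. Mcm4 (11.32 and 11.36), Rrm1 (9.14 and 9.26), E2f1 (9.46 and 9.58), Mad2l1 (8.95 and 9.02), Cdca8 (9.80 and 9.99) and Prc1 (10.97 and 11.11) differed by less than 0.2 log2.

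**Figure D3:**
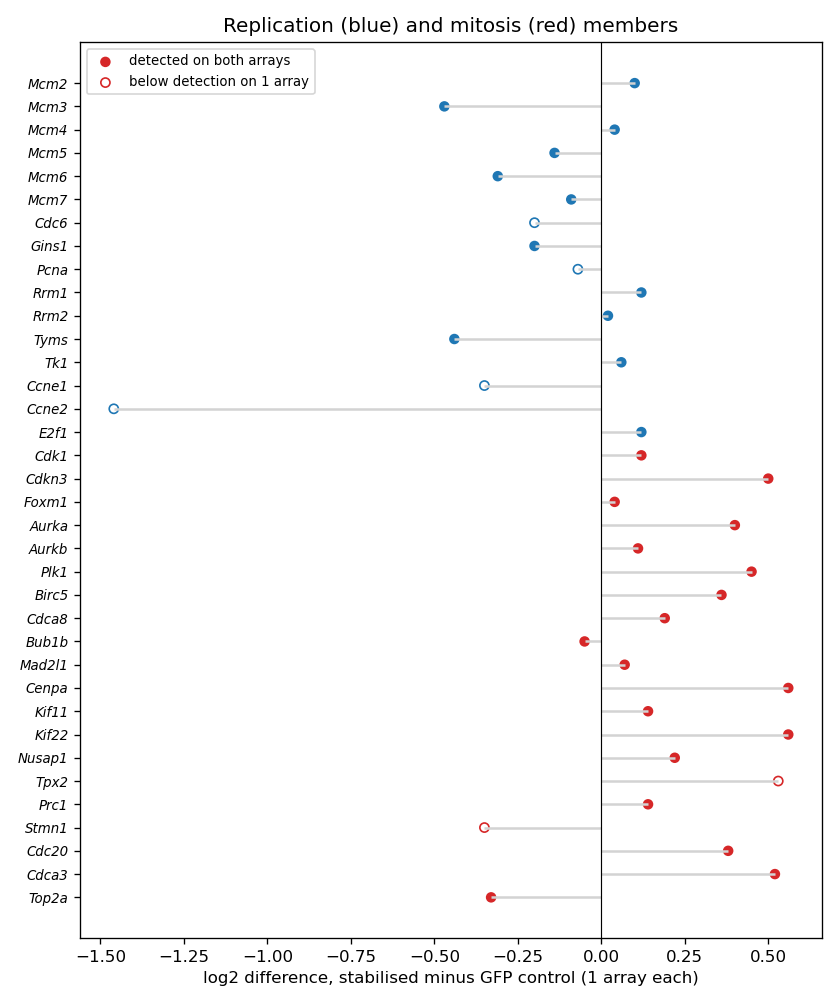
Log2 difference of the stabilised array minus the GFP control array for each of 36 members, replication in blue and mitosis in red, with open circles for a member below detection on 1 of the 2 arrays. Most mitosis members lie above 0 and reach 0.56, and Ccne2, an open circle, lies at -1.46.

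Markers of other cells also differed between these 2 arrays. Hair follicle markers summed to 1630 with GFP and to 202 with stabilised β-catenin (4 and 1 of 5 detected), and skeletal muscle markers to 5230 and 376 (5 and 2 of 7 detected). Macrophage markers summed to 18000 and 32300 (7 of 7 detected on both), and erythroid markers to 4540 and 31900 (1 and 2 of 2 detected). Their part in the differences of the members was not tested.

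Separate probes of a gene gave a check within each array, though they share the sample. For 11 members 2 or more probes were detected on all 6 arrays, 25 probes in total. All probes of a gene had the same sign in 10 of 11 genes for the age difference in controls, the exception being Mcm7, and in 8 of 11 for knockdown against control, the exceptions being Mcm6, Rrm1 and Rrm2. For stabilised against GFP control the sign was shared in 6 of 11, and the probes of Bub1b, Cdc20, Cdca8, Rrm1 and Rrm2 did not agree in sign. The 4 probes of Cdc20 gave 0.94, 1.01, 1.07 and 1.14 log2 for the age difference in controls. For stabilised minus GFP control they gave 0.28, 0.34, 0.38 and -0.42.

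**Figure D4:**
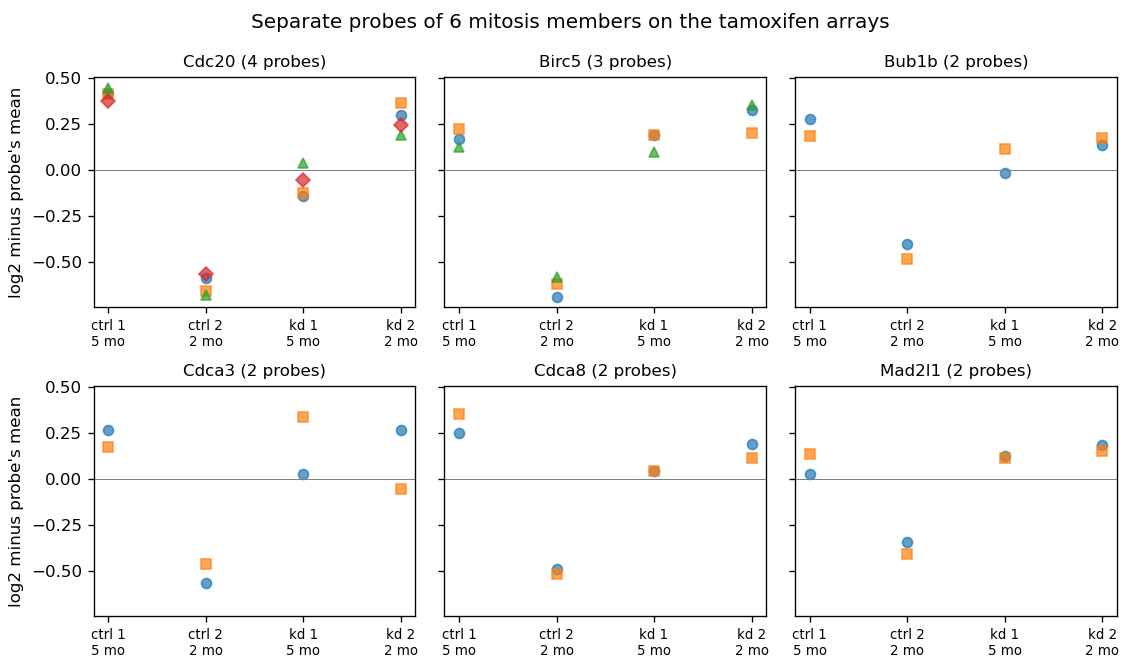
Log2 intensity of each probe minus its mean over the 4 tamoxifen arrays, for 6 mitosis members with several probes detected on all arrays, where each symbol and colour is 1 probe. Every probe of the 6 genes is lowest on the 2-month control array, and the 4 Cdc20 probes differ there from the 5-month control by 0.94 to 1.14 log2.

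Other genes of the cell cycle were read from 5 further lists of 151 genes. Of 107 kept on the tamoxifen arrays, 75 were higher in knockdown with a median of 0.11 log2, 0 were called by limma and 0 had an unadjusted p under 0.05. Replication factors outside the members were higher in 26 of 33, and in 14 of 33 both knockdown arrays were above both controls, against 17.1% of all genes. In 1 of 33 both were below. Cdc45, which joins GINS and the MCM ring, read 7.32 and 6.95 log2 in control and 7.61 and 7.64 in knockdown. Mcm10, which helps to start the helicase, read 7.34 and 7.21 against 7.60 and 8.09. Both had limma adjusted p = 0.976, with differences of 0.49 and 0.57.

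Further mitosis genes were higher in 37 of 50, with a median of 0.17 log2. Lmnb1, a lamin of the nuclear envelope, read 9.99 and 9.42 in control and 10.06 and 10.44 in knockdown. Cdca7, a chromatin protein, was lower in both knockdown arrays, with 9.88 and 9.96 in control and 9.37 and 9.64 in knockdown (limma adjusted p = 0.976), and read 10.21 with GFP and 9.17 with stabilised β-catenin. CDK inhibitors were higher in 5 of 7. Cdkn1c, the inhibitor p57, read 12.95 and 12.22 in control and 13.15 and 12.96 in knockdown. Among Rb, E2F and DREAM genes 6 of 12 were higher. Mybl2, which activates mitosis genes, read 6.99 and 6.78 against 7.24 and 7.14. Rb1, the retinoblastoma protein, read 9.56 and 9.45 against 9.32 and 9.32. The largest difference of this list was that of Myc, -0.43 ± 0.21 (SE, limma adjusted p = 0.976). Myc read 6.10 and 6.19 in control and 5.48 and 5.95, both below detection, in knockdown, at least 1.03-fold lower. It read 6.46 with GFP and 5.51, below detection, with stabilised β-catenin, where 5 of 12 genes of the list were higher.

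Of the G1 cyclins and their kinases, 1 of 5 had a higher mean in knockdown, against 51.9% of all genes. At 5 months 3 of 5 were higher, with a median of 0.03 log2, and at 2 months 1 of 5, with a median of -0.16. The gene with the higher mean was Cdk4, the partner kinase of cyclin D. It read 10.69 and 10.51 log2 in control and 10.87 and 10.80 in knockdown. Ccnd1, cyclin D1, read 11.87 and 11.67 against 11.94 and 11.13, and Ccnd2 10.07 and 10.25 against 9.71 and 10.09, both with overlap. On the stabilised array 0 of 5 were higher, with a median of -0.49, against 55.3% of all genes. Ccnd1 read 11.65 on the GFP control and 10.89 there, Ccnd2 10.58 and 10.01, and Cdk4 10.63 and 10.14.

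With age, 7 of the 107 had an unadjusted p under 0.05, against 10.1% of all genes, and 0 were called. Kif23, a kinesin of the midzone that works beside Prc1, read 13.62 and 12.88 log2 at 5 and 2 months in control and 13.99 and 13.04 in knockdown. Its difference was 0.85 ± 0.15 (SE, limma adjusted p = 0.433). Smc4, a condensin subunit, read 6.40 and 5.69 in control and 6.37 and 5.64 in knockdown, and Kif15, a spindle kinesin, 7.79 and 7.13 against 7.67 and 7.12. Top1, a topoisomerase that relaxes DNA ahead of the fork, was higher at 2 months, with 7.85 and 8.52 in control and 7.69 and 8.30 in knockdown. In these 4 genes the age difference had the same sign in both groups.

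On the stabilised array 57 of 108 of these genes were higher, with a median of 0.04 log2, 0 were higher by 2-fold or more and 3 lower, against 2.76% and 4.91% of all genes. The 3 were Cdca7, Shcbp1 and Pkmyt1. Shcbp1, a midbody protein, read 6.59 on the GFP control and 5.01, below detection, on the stabilised array, at least 1.22-fold lower. For Pkmyt1, an inhibitory kinase of Cdk1, the bound is under 1 and no fold is given. Kif2c, a kinesin that takes microtubules apart, was the highest, with 8.21 and 9.02.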

How the data were processed

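Total RNA of 6 wounds was read on Illumina bead arrays. For each of 45281 probes, 1 deposited table holds the mean bead intensity and its detection p-value, per the file headers. The other deposited table is on the log2 scale, has the same quantiles on every array, and its values lie within 0.0874 of limma's neqc (offset 16) on the intensities. R 2.14 is named in the submitters' processing notes. No source used here states the scanner software or the normalization.

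The deposited log2 values were used. Probes took their gene from the platform annotation (34885 probes with 1 symbol, 18 with several, 10378 with none). Genes were kept at a detection p under 0.01 on at least 2 tamoxifen arrays (9855) or 1 adenovirus array (10002). Both tamoxifen comparisons were fitted with limma 3.58.1 in R 4.3.3 over the 4 arrays, two-sided, with Benjamini-Hochberg adjustment over all 9855 genes and a threshold of 0.05. The knockdown fit left 2 residual degrees of freedom and the age fit, with genotype as a term, 1. The labels call the samples biological replicates. Any 2 arrays shared at most 2 identical signals.

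Below detection, a fold is a bound in the deposited values, taken from the lowest detected signal of the dim array. Named members are the brightest of each of 10 roles and the 3 highest and lowest in each comparison; others are named from counts of 5 or fewer or after their values were seen. In each other list up to 4 genes were named per comparison. Members, lists and tests were chosen with earlier results of these data known. Alternatives covered background correction, scaling, dim probes, the choice of probe, eBayes settings, the replicate block and each array left out. The fit was also tested on simulated data.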

Additional observations from a re-analysis of the deposited data

Results flagged for a closer look

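Opposite signs of knockdown minus control at the 2 ages were found in 21 of 32 members, a count without the share over all genes beside it. Some of the differences at 1 age were close to 0. Each age has 1 array a side, and an interaction leaves no residual degrees of freedom, so the difference between the ages was not tested. At 5 and 2 months the median log2 difference was -0.02 and 0.54 over all members and -0.05 and 0.58 over the mitosis members. Over the replication members it was 0.08 and 0.15, of the same sign at both ages.

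Named members with opposite signs included 6 replication genes. At 5 and then 2 months the log2 differences were -0.06 and 0.06 for Mcm3, -0.05 and 0.12 for Mcm5, and 0.21 and -0.18 for Mcm7. They were 0.05 and -0.13 for Gins1, -0.11 and 0.21 for Rrm1, and -0.13 and 0.67 for Tyms. Mcm7 and Gins1 were higher at 5 months, and the other 4 at 2 months. These are values of the brightest probes. The other Mcm7 probe, detected on all 6 arrays, was above control at both ages, by 0.35 at 2 months. A dimmer Tyms probe, detected on the 4 tamoxifen arrays, was also above control at both ages, by 0.09 at 2 months.

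The 7 mitosis genes among them were all lower than control at 5 months and higher at 2 months. The differences were -0.20 and 0.68 for Cdca8, -0.02 and 0.56 for Mad2l1, -0.01 and 0.93 for Cenpa, and -0.02 and 0.39 for Kif11. They were -0.06 and 0.47 for Prc1, -0.42 and 0.87 for Cdc20, and -0.30 and 0.54 for Top2a. In each of the 7 the 2-month control array was the lowest of the 4. At 5 months Cenpa, Mad2l1 and Kif11 differed by 0.02 or less.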

How the results depend on the processing

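Over 422 values of named members under other settings 13 changed sign, and over 152 with 1 array left out 41 did. None of the named members passed the threshold in a tamoxifen comparison, and the adenovirus pair has no test. Leaving out 1 array gave medians for knockdown minus control of -0.02 to 0.50 log2 over all members and -0.10 to 0.60 over mitosis members, both lowest without tamoxifen control replicate 2, and 0.01 to 0.18 over replication members. For age the ranges were -0.04 to 0.56 over all members, -0.05 to 0.70 over mitosis members and 0.03 to 0.13 over replication members, with the lowest values from the knockdown group alone. Genes called for knockdown ranged from 0 to 7, with 7 without knockdown replicate 1. For age 1 gene was called with trended and robust eBayes, in place of 0. The 767 genes past 2-fold on the stabilised array became 441 with detection on both arrays, for which fewer genes were compared, and 311 with no background correction. Median scaling gave -0.31 for the replication members there, in place of -0.11, and -0.10 for all members, in place of 0.08; the cause was not tested. Same-numbered tamoxifen arrays correlated at 0.126 in their deviations from the group means, a single value with 2 arrays a group, which does not settle whether they were paired. With the replicate block 0 genes were called, 746 in place of 434 had an unadjusted p under 0.05, and the medians were 0.22, 0.08 and 0.25, which this balanced design fixes.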

Other observations

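Members at the edge of detection were not in the counts of the tamoxifen arrays. Cdc6, which loads the MCM ring, read 5.92 and 5.98 log2 in control (5 and 2 months) and 6.41 and 5.85 in knockdown, and 6.21 and 6.01 on the GFP control and the stabilised array. Pcna, the sliding clamp of the polymerases, read 5.53 and 5.32 in control, 5.78 and 5.19 in knockdown, and 6.11 and 6.04 in the adenovirus pair. Stmn1, which destabilises microtubules, read 5.84 and 6.07, 5.79 and 5.89, and 6.64 and 6.29.

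A probe of Mcm6, ILMN_1217331, was detected on the 4 tamoxifen arrays, at 8.11 to 8.64 log2, and was below detection on both adenovirus arrays. This holds for that probe and not for the gene. Its probes ILMN_1233857 and ILMN_2803399 were detected on all 6 arrays. On the GFP control and the stabilised array they read 8.39 and 8.08, and 8.36 and 7.91. The mice of the 2 experiments also differed in Xist detection and in treatment, and the values of ILMN_1217331 were not compared between them.

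Among replication factors outside the members, Timeless and Tipin, which protect stalled forks together, were both higher at 5 months in both groups. Timeless read 7.82 and 7.39 log2 at 5 and 2 months in control and 7.91 and 7.37 in knockdown. Tipin read 9.85 and 9.44 in control and 9.91 and 9.52 in knockdown. Their age differences of 0.49 and 0.40 had limma adjusted p-values of 0.471 and 0.486.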
